A study of Rattus norvegicus with 6 samples.

Results

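The miRNAs described here are the arms of miR-122, miR-192 and miR-194 that are known as liver and gut miRNAs and circulate in serum, namely rno-miR-122-5p, rno-miR-122-3p, rno-miR-192-5p, rno-miR-194-5p and rno-miR-194-3p (rno for Rattus norvegicus, left out from here on). They were chosen by name from the deposited table of unique molecular identifier (UMI) counts, in which all 5 of the 5 names were found among 749 mature miRNAs. Exosomes came from the culture medium of bone marrow mesenchymal stem cells (MSCs) of Sprague-Dawley rats, in 3 libraries from normal cells (MSCs-exo) and 3 libraries from cells given 400 μg/mL of Tongxinluo, a Chinese medicine compound abbreviated TXL, over 24 h beforehand (MSCsTXL-exo). Both groups were conditioned in medium that held exosome-free fetal bovine serum, so serum was a component shared by the 6 libraries, and none of them was made from medium without cells. Each library carries the number of its column in the table, 10, 12 or 13, which the sample labels do not explain, and 3 values in a row follow that order. No source says whether a group's libraries were grown as separate cultures, and p-values then reflect spread between these libraries, which may be technical.

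A miRNA is cut from a hairpin RNA whose 2 sides give a 5p and a 3p arm, and it lowers the output of messenger RNAs that pair with its seed, bases 2 to 8 counted from the 5′ end. miR-122-5p is the hallmark miRNA of hepatocytes, where it acts in cholesterol and lipid metabolism, and its level in blood serves as a marker of liver injury. miR-192-5p and miR-194-5p are miRNAs of liver, gut and kidney epithelium whose genes are activated by hepatocyte nuclear factors and by p53. The mature sequence of miR-122-5p is the same in many mammals, and a count of such a sequence does not record the species it came from.

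The mature sequences of all 5 members are shown because the seed decides which messenger RNAs a miRNA can pair with. They are from RefSeq on GRCr8, with the seed in capitals, and miR-215 is added as a miRNA of the same seed as miR-192-5p.
miR-122-5p: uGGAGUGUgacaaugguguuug
miR-122-3p: aACGCCAUcaucacacuaa
miR-192-5p: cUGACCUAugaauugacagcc
miR-215: aUGACCUAugauuugacagaca
miR-194-5p: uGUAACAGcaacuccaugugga
miR-194-3p: cCAGUGGGgcugcuguuaucu
The 5 members have 5 different seeds, so they do not form 1 seed family although they are grouped by tissue. Among 693 mature miRNAs in the RefSeq table, the seed of miR-192-5p is shared by miR-215 alone, and those of the other members are shared by none. The deposited counts held no miRNA under the name miR-215, so it was not analysed here.

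The members come from 4 hairpins on 3 chromosomes. Mir122 lies on GRCr8 chromosome 18, plus strand, from 61028817 to 61028901, within the transcribed pseudogene LOC134482951 and between Nedd4l and Alpk2. Its hairpin is shown with both mature arms in capitals, to place the 5p arm ahead of the loop and the 3p arm behind it.
Mir122: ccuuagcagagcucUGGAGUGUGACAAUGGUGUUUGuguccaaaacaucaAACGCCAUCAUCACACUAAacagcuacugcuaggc
Mir194-2 (212994024 to 212994108) and Mir192 (212994209 to 212994318) lie side by side on the plus strand of chromosome 1, between Atg2a and Ehd1. Mir194-1 lies within Iars2 on chromosome 13 (99382716 to 99382798), next to Mir215. The mature miR-194-5p is identical from Mir194-1 and Mir194-2, so its count cannot be divided between them, whereas RefSeq gives miR-194-3p from Mir194-2 only. The 2 hairpins differ around the shared arm, as their sequences show with the annotated arms in capitals.
Mir194-1: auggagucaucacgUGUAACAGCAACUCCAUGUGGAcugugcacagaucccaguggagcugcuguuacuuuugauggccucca
Mir194-2: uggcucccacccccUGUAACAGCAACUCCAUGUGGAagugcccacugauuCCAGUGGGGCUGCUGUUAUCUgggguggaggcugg

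The libraries held 382665 to 1792805 UMIs, of which MSCsTXL-exo library 13 had the most, and 657 to 720 miRNAs were detected in each. Levels are in CPM, the UMIs of a miRNA per 1000000 UMIs of its library, with library sizes normalised by TMM (trimmed mean of M-values) factors. As 1 UMI stands for 1 captured RNA molecule and the members are 19 to 22 bases long, levels of different miRNAs were compared without a length term. How efficiently each miRNA was captured was not measured. Comparisons between miRNAs are therefore of counts, and not of amounts in the exosomes. For a miRNA without a UMI the upper limit was 3 UMIs, or 1.94 to 7.48 CPM depending on the library, counting error only. Of the 5 members, 3 passed the filter on low counts and entered the test, as did 392 miRNAs in all.

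rno-miR-122-5p had 77, 126 and 150 UMIs in MSCs-exo and 59, 86 and 388 UMIs in MSCsTXL-exo (libraries 10, 12 and 13 of each). These were levels of 148.5, 177 and 162 CPM without TXL and 147, 106 and 251 CPM with it. The 3 MSCs-exo libraries thus lay close together, while MSCsTXL-exo held both the lowest (library 12) and the highest (library 13) level of the hepatocyte miRNA. Exact Poisson 95% intervals, for counting error only, ran from 85.2 to 131.5 CPM in the lowest library and from 227 to 277 CPM in the highest, and did not touch. By level, miR-122-5p ranked between 118 and 185 of 749 in the 6 libraries and made up 0.0108% to 0.0216% of the UMIs.

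miR-192-5p stood at nearly the same level as miR-122-5p, although it comes from another chromosome. For rno-miR-192-5p, MSCs-exo gave 81, 124 and 156 UMIs, and MSCsTXL-exo gave 54, 113 and 341. In CPM these were 156, 174 and 168.5 against 135, 139.9 and 221. Again MSCsTXL-exo library 13 was the highest, and MSCs-exo lay inside the range of MSCsTXL-exo.

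rno-miR-194-5p was the least abundant of the 3 5p arms. MSCs-exo gave 33, 57 and 72 UMIs of it, and MSCsTXL-exo gave 39, 69 and 129. In CPM these were 63.7, 80.1 and 77.8 against 97.2, 85.4 and 83.5. Each MSCsTXL-exo library was above each MSCs-exo library, by a small margin between 80.1 and 83.5 CPM, and the Poisson intervals of the 2 libraries at that margin overlapped (60.7 to 104 and 69.7 to 99.2 CPM). Of the 392 tested miRNAs, 29 (7.4%) had groups that did not overlap. With RLE factors the groups of miR-194-5p also stayed apart, whereas with upper quartile factors or library totals they overlapped.

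**Figure D1:**
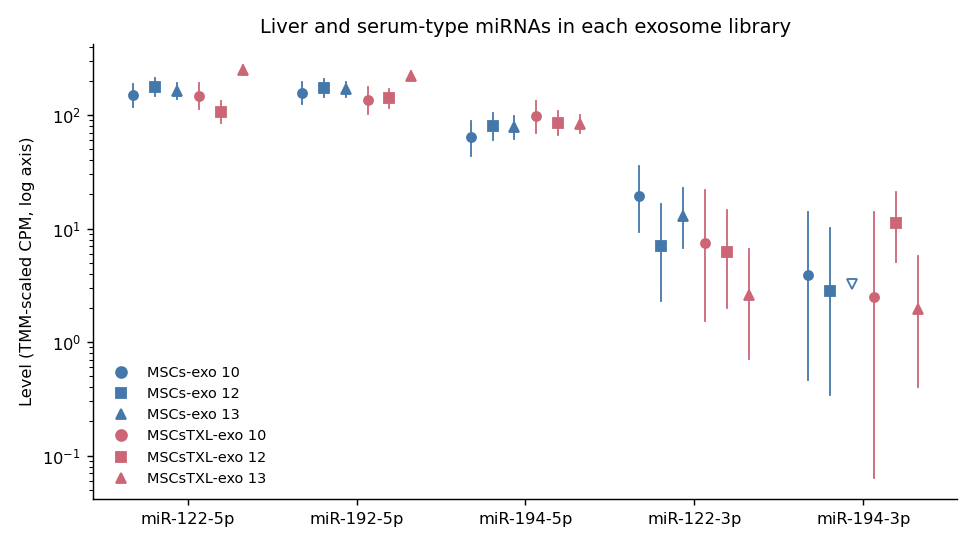
Level of each member in each library (TMM-scaled CPM on a log axis), coloured by group, with a symbol per library number and exact Poisson 95% intervals as bars. The open triangle marks the upper limit of 3 UMIs for miR-194-3p in MSCs-exo library 13, where the count was 0. miR-122-5p and miR-192-5p lie together between 106 and 251 CPM, miR-194-5p lies between 63.7 and 97.2 CPM, and both 3p arms lie under 20 CPM with wide intervals.

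The order of mean levels over the 6 libraries was miR-192-5p (165.7 CPM), miR-122-5p (165.4 CPM), miR-194-5p (81.3 CPM), miR-122-3p (9.26 CPM) and miR-194-3p (3.71 CPM). The first pair changed places between libraries, with more miR-122-5p than miR-192-5p in 3 of the 6, so these neighbours did not differ beyond their spread. miR-194-5p was below both in each library. The lowest pair also overlapped, as miR-194-3p reached 11.1 CPM in MSCsTXL-exo library 12, where miR-122-3p had 6.19 CPM.

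The comparison of MSCsTXL-exo with MSCs-exo asked whether TXL pretreatment of the cells changed what their exosomes carried. None of the 3 members tested passed a 2-fold change with an unadjusted p under 0.05, against 14 of 392 tested miRNAs (3.57%), or 29 (7.4%) with the library number as a block. The mean level of miR-122-5p was 163 ± 14.3 CPM without TXL and 168 ± 74.6 CPM with it (SD, n = 3 each). Its log2 fold change was 0.05 with a standard error of 0.42 and a 95% interval from -0.93 to 1.03 (edgeR quasi-likelihood test, Benjamini-Hochberg adjusted p = 0.992). The group means of the hepatocyte miRNA were thus nearly equal, and the interval still reached past 2-fold on the upper side.

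miR-192-5p had 166 ± 9.23 CPM (SD, n = 3) and 165.1 ± 48.3 CPM (SD, n = 3). Its log2 fold change was -0.01, with a standard error of 0.37 and a 95% interval from -0.86 to 0.85 (edgeR, adjusted p = 0.992). For miR-194-5p the means were 73.9 ± 8.91 CPM (SD, n = 3) and 88.7 ± 7.43 CPM (SD, n = 3). Its log2 fold change was 0.26, with a standard error of 0.36 and a 95% interval from -0.57 to 1.09 (edgeR, adjusted p = 0.992), although it was higher in 3 of 3 MSCsTXL-exo libraries. The exact two-sided permutation test of its CPM gave p = 0.1, the smallest that 3 libraries against 3 allow. The absolute log2 fold change of the median tested miRNA was 0.28, so that the 3 members lay at or under it.

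Paired by library number, MSCsTXL-exo had 0.99-fold (10), 0.601-fold (12) and 1.55-fold (13) the MSCs-exo level of miR-122-5p. The same folds were 0.862, 0.803 and 1.31 for miR-192-5p and 1.53, 1.07 and 1.07 for miR-194-5p. miR-122-5p and miR-192-5p were thus lower in MSCsTXL-exo for numbers 10 and 12 and higher for 13, while miR-194-5p was higher for each number. With the number as a replicate block, the log2 fold changes were -0.03, -0.04 and 0.26, and none was called. MSCsTXL-exo library 13 set much of the estimates, since without it miR-122-5p had -0.41 and miR-192-5p -0.33, and miR-194-5p had 0.13 to 0.32 whichever library was left out. That library also had the largest total, 1792805 UMIs, and the part of depth in this was not tested. Unblocked, 0 of the 392 miRNAs had an adjusted p under 0.05 with edgeR, DESeq2 or limma-voom, while 14 had an unadjusted p under 0.05 with edgeR.

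**Figure D2:**
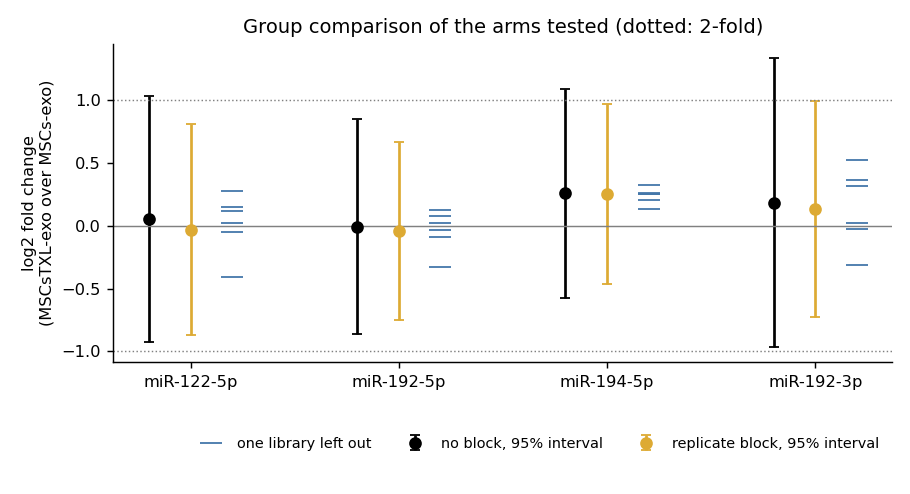
log2 fold change of MSCsTXL-exo over MSCs-exo for the 3 members tested and for miR-192-3p, fitted unblocked (black) or blocked by library number (yellow), each with its 95% interval, and after leaving out each library in turn (blue dashes). Dotted lines mark 2-fold. All intervals include 0, and the dash farthest down for miR-122-5p, at -0.41, is the fit without MSCsTXL-exo library 13.

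The 3p arms, the side of these hairpins that is mostly discarded, were rare. Of rno-miR-122-3p, MSCs-exo gave 10, 5 and 12 UMIs and MSCsTXL-exo gave 3, 5 and 4. This gave 19.3, 7.03 and 13 CPM against 7.48, 6.19 and 2.59 CPM. The group means differed by -1.27 on the log2 scale, and the groups overlapped between 7.03 and 7.48 CPM (exact two-sided permutation test, p = 0.2). Paired by library number, MSCsTXL-exo had 0.388-fold (10), 0.881-fold (12) and 0.200-fold (13) the MSCs-exo level, lower for each number, on 3 to 12 UMIs a library. With upper quartile factors the groups of miR-122-3p did not overlap (exact permutation p = 0.1, the smallest possible), as for 21 of the 392 tested miRNAs. The nearest libraries of the groups then stood at 7.29 and 7.55 CPM. With RLE factors or library totals the groups overlapped. The level of miR-122-3p was below the filter on low counts. Fitted with no filter, it had a log2 fold change of -1.38, a standard error of 0.67 and an unadjusted p = 0.0598 from edgeR (adjusted p = 0.995).

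Of rno-miR-194-3p, MSCs-exo gave 2, 2 and 0 UMIs and MSCsTXL-exo gave 1, 9 and 3. MSCsTXL-exo library 12, at 11.1 CPM, held 9 of its 17 UMIs in all, and the groups overlapped. The log2 ratio of the group means was 1.22 (exact two-sided permutation test, p = 0.6), and -0.0036 without that library. At these counts a difference in miR-194-3p was not detectable.

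Summed over the libraries, the 5p arm made up 95.8% of the arms of miR-122 (886 against 39 UMIs) and 95.9% of those of miR-194 (399 against 17). For miR-192 it was 87.2% (869 against 127). The 5p arm therefore led for each of the 3 miRNAs, and did so in each library, from 76.4% for miR-192 in MSCsTXL-exo library 12 (exact binomial 95% interval 68.7% to 82.9%) upward. miR-192-3p is no member but comes from the same hairpin as miR-192-5p, and it passed the filter. It had 9, 25 and 20 UMIs in MSCs-exo and 9, 35 and 29 in MSCsTXL-exo, with a log2 fold change of 0.18 (standard error 0.50). Its highest levels, 35.1 and 43.3 CPM, were in the libraries numbered 12 of each group. In MSCs-exo miR-192-5p was also highest in library 12, at 174 CPM. In MSCsTXL-exo it was highest in library 13, at 221 CPM, so the arms peaked in different libraries in that group only.

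Ratios of 2 members within a library need no scaling between libraries. The ratio of miR-122-5p to miR-192-5p was 0.951, 1.02 and 0.962 without TXL and 1.09, 0.761 and 1.14 with it. It stayed near 1 in each, with MSCsTXL-exo library 12 the lowest. The ratio of miR-192-5p to miR-194-5p, whose genes include a pair of neighbours on chromosome 1, was 2.45, 2.18 and 2.17 in MSCs-exo and 1.38, 1.64 and 2.64 in MSCsTXL-exo.

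MSCs-exo libraries were alike in the ratio of miR-192-5p to miR-194-5p, and MSCsTXL-exo libraries 10 and 12 lay below all of them and library 13 above. On the log2 scale the group means of this ratio differed by -0.31 (exact two-sided permutation test, p = 0.4). For miR-122-5p to miR-192-5p the difference was 0.01 (exact permutation p = 1). The ratio of miR-122-5p to miR-122-3p was 7.7, 25.2 and 12.5 in MSCs-exo and 19.7, 17.2 and 97 in MSCsTXL-exo, where the last value rests on 4 UMIs of the 3p arm. Its log2 means differed by 1.17 (exact permutation p = 0.4), or by 0.37 without MSCsTXL-exo library 13, and those of miR-194-5p to miR-194-3p by -0.88 (exact permutation p = 0.6). After Benjamini-Hochberg adjustment over these 4 ratios the permutation p-values were 0.8 for 3 of them and 1 for miR-122-5p to miR-192-5p.

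**Figure D3:**
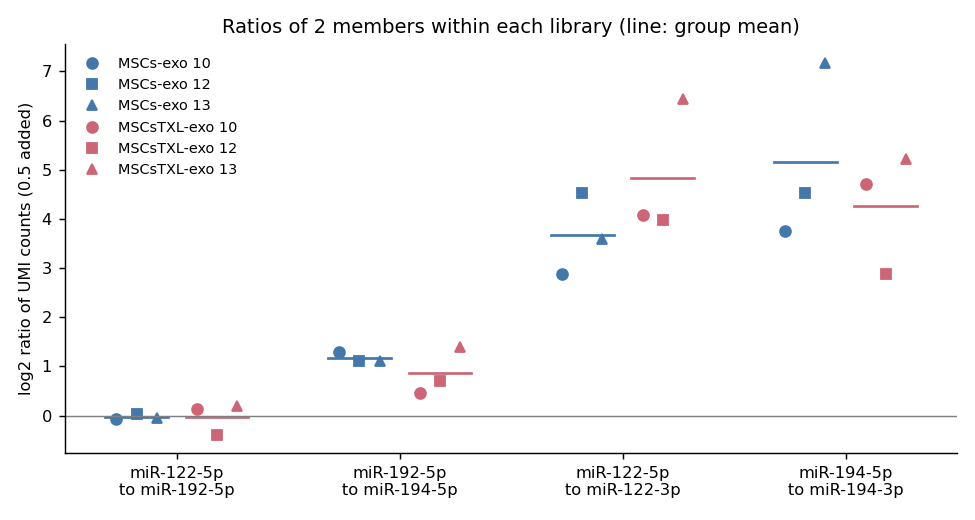
log2 ratio of the UMI counts of 2 members in the same library, with 0.5 added to both counts, by group and library number, and the group means as lines. miR-122-5p to miR-192-5p stays near 0, which is a ratio of 1, in each library. The ratios to the 3p arms spread over several log2 units because the 3p arms have few UMIs.

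The members differed in how far they varied between libraries of the same group. The SD of log2 CPM within groups was 0.15 for miR-194-5p, 0.28 for miR-192-5p and 0.44 for miR-122-5p, where the median of the 392 tested miRNAs was 0.56. In order from the steadiest, these were ranks 10, 72 and 145. From its lowest to its highest library the level rose 1.53-fold for miR-194-5p, 1.64-fold for miR-192-5p and 2.36-fold for miR-122-5p, against a median of 2.88-fold.

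The observed variance within groups was also set against that of Poisson counting, as a ratio that is 1 for counting alone and grows with the number of UMIs. It was 0.483 for miR-194-5p, 6.43 for miR-192-5p and 16 for miR-122-5p, with a median of 9.93 over the tested miRNAs. The libraries of a group thus differed in miR-194-5p by no more than counting gives, at 33 to 129 UMIs. For miR-122-5p and miR-192-5p the ratio pools both groups, and the wide spread was in MSCsTXL-exo (SD 74.6 and 48.3 CPM). In MSCs-exo the SDs were 14.3 and 9.23 CPM, and the Poisson intervals of its libraries overlapped for both miRNAs.

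**Figure D4:**
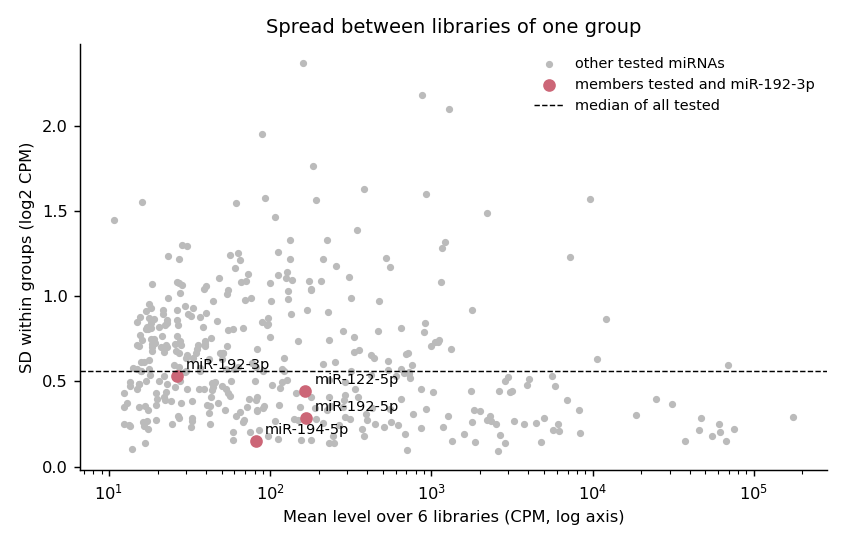
SD of log2 CPM between libraries of the same group against mean level (CPM on a log axis) for the 392 tested miRNAs, with the 3 members tested and miR-192-3p in red and the median of 0.56 as a dashed line. miR-194-5p lies near the lower edge of the cloud, at 0.15, and all 4 red points lie under the median.

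Over the 6 libraries, log2 CPM of miR-122-5p and miR-192-5p had a Pearson correlation of 0.90, whereas miR-194-5p had -0.04 with miR-122-5p and -0.21 with miR-192-5p. The neighbours on chromosome 1 were thus less alike in pattern than the pair from different chromosomes. However, miR-194-5p varied within groups by no more than counting gives, which leaves little pattern to compare. Its count also includes RNA from Mir194-1 on chromosome 13. These correlations are descriptions of 6 points that share their scaling and depth with both measures. The tested miRNAs most like miR-122-5p were miR-29b-3p (0.93), miR-218a-5p (0.92) and miR-18a-5p (0.91). Most like miR-192-5p were miR-455-5p, miR-301a-3p and miR-101b-3p, each at 0.98.

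All 6 of these miRNAs were highest in MSCsTXL-exo library 13, as were miR-122-5p and miR-192-5p. miR-29b-3p, for example, stood at 644, 732 and 1005 CPM without TXL and at 643, 468 and 1927 CPM with it. The miRNAs most like miR-194-5p were others, namely miR-374-5p (0.95), miR-505-5p (0.94) and miR-10b-5p (0.93), which were highest in MSCsTXL-exo library 10. No miRNA appears among the nearest of more than 1 member.

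Beside other tissue lists, the members together summed to 392, 441 and 421 CPM without TXL and to 389, 349 and 560 CPM with it, and the groups overlapped. The mesenchymal list, led by miR-125b-5p and miR-199a-3p, summed to 311026 to 397330 CPM, or 34.2% to 39.1% of the UMIs, so miRNAs typical of the labelled cell type were abundant. In a library miR-125b-5p was counted 885 to 1356 times for each miR-122-5p. The members were thus a small part of what was counted, at 0.0355% to 0.0482% of the UMIs.

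miR-451-5p, the erythrocyte miRNA that is abundant in blood, had 7.48 to 23.9 CPM, and miR-122-5p had 7.41 to 19.7 times its count within a library. The erythroid list summed to 27.2 to 43.6 CPM, below the members in each library. The leukocyte and platelet list, led by miR-142-3p and miR-223-3p, summed to 399, 447 and 344 CPM without TXL and to 227, 262 and 320 CPM with it. These groups did not overlap, as for 29 of the 392 tested miRNAs (7.4%). miR-122-5p had 1.60, 2.03 and 2 times the count of the myeloid miR-223-3p without TXL and 3.93, 2.26 and 4 times with it. miR-223-3p itself had 92.6, 87.2 and 81.0 CPM without TXL and 37.4, 47.0 and 62.8 CPM with it. Its log2 fold change was -0.81 (edgeR, adjusted p = 0.972), while the group means of miR-122-5p were nearly equal. The liver miRNA miR-802-5p had 6 to 14 UMIs and miR-802-3p had 1 to 7, and both were under the filter.

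Of the lists read beside the members, 1 of 4 erythroid, 4 of 6 leukocyte and platelet, 2 of 12 muscle, 2 of 13 epithelial, 2 of 8 pancreatic, 4 of 9 neuronal and 10 of 11 mesenchymal arms were tested. The median log2 fold change was 0.05 over the 3 members tested and 0.03 over all 392 miRNAs. For the other lists it was -0.40 (erythroid), -0.52 (leukocyte and platelet), -0.45 (muscle), -0.09 (epithelial), -1.38 (pancreatic), 0.04 (neuronal) and -0.08 (mesenchymal). Only miR-128-2-5p of the neuronal list, with -1.68, passed the thresholds among all these lists, as 7 of the 392 (1.79%) did in the lower direction. It had 98.4, 26.7 and 38.9 CPM without TXL and 19.9, 11.1 and 19.4 CPM with it. The far more abundant miR-128-3p of that list, at 1348 to 1805 CPM, had 0.03. With the replicate block miR-206-3p of the muscle list (-1.36) and miR-216a-3p of the pancreatic list (-1.76) passed them too, where 23 of 392 (5.87%) were lower. As the RNA was pooled from many vesicles, fewer vesicles of a kind and less of a miRNA in each cannot be told apart.

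**Figure D5:**
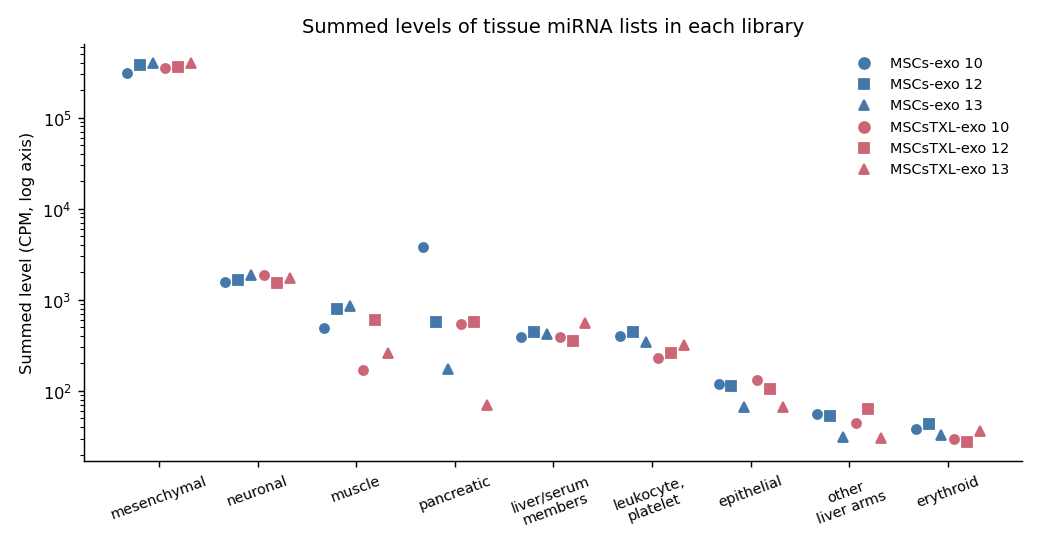
Summed level of each list in each library (CPM on a log axis), by group and library number, from the mesenchymal list at 311026 to 397330 CPM to the erythroid list at 27.2 to 43.6 CPM. The members lie between 349 and 560 CPM with the groups overlapping, close to the leukocyte and platelet list. The pancreatic sum spreads from 69.9 to 3831 CPM, with the highest in MSCs-exo library 10.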

How the data were processed

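Exosomal small RNA was sequenced with a QIAseq kit that tags molecules with UMIs. Per the submitters' notes cutadapt 2.7 and Bowtie 1.2.2 were used, and the genome build is not given in the sources used here. The authors deposited UMI counts that were not normalised, in 833 lines for 749 miRNAs. A miRNA with several loci (69 of them) repeats the same counts at each, and entered once. The CPM values that the authors deposited beside them (6 columns) were not used. The column letters M and T were read as MSCs-exo and MSCsTXL-exo.

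All miRNAs were fitted with edgeR 4.0.16 in R 4.3.3 (trimmed mean of M values, TMM; filterByExpr with minimum count 10 and total 15, quasi-likelihood test, no block), and p-values were adjusted over all 392 tested. A miRNA was called, by the study's thresholds, when it changed by more than 2-fold and its p before adjustment was below 0.05. The fit was checked on simulated counts. DESeq2 1.42.0, limma-voom (limma 3.58.1), other scalings, other filters, each library left out and a replicate block were the alternatives. The numbers were taken to pair the libraries, since deviations from the group means correlated at 0.43 (10), 0.18 (12) and 0.70 (13) between the groups. However, MSCs-exo library 10 correlated at 0.35 with MSCsTXL-exo library 12, above the value for number 12 itself. The other unmatched pairs ran from -0.67 to -0.08. For each miRNA the deviations of a group's 3 libraries sum to 0, so unmatched values are not independent of the matched ones. The pairing is therefore an assumption, read from the same counts as the paired folds and the block, and is weakest for number 12.

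Members and lists (liver, erythroid, leukocyte and platelet, muscle, epithelial, pancreatic, neuronal, mesenchymal) were chosen with earlier results of these data known. Named were all members, their related liver arms, miRNAs of the lists among the 2 most abundant or past the thresholds, and the 3 most correlated with each tested member (prior count 2). miR-122b was named after its values were seen. RefSeq sequences (GRCr8) matched 5 of 5 members.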

Additional observations from a re-analysis of the deposited data

How the results depend on the processing

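None of the 3 members tested was called under any of the 15 alternatives, and miR-194-5p had a positive log2 fold change in all of them. The sign of miR-122-5p (0.05) turned with library totals (-0.065), limma-voom (-0.0091), at least 10 counts in every library (-0.027), the replicate block (-0.029) and the block in DESeq2 (-0.030). Leaving out 1 library gave it -0.41 to 0.28, with -0.049 without MSCs-exo library 10 and -0.41 without MSCsTXL-exo library 13. The sign of miR-192-5p (-0.01) turned with upper quartile factors (0.053) and DESeq2 (0.0028), and leaving out 1 library gave -0.33 to 0.13, with 0.026 without MSCs-exo library 12, 0.13 without MSCsTXL-exo library 10 and 0.080 without MSCsTXL-exo library 12. Leaving out 1 library gave -0.31 (without MSCsTXL-exo library 12) to 0.52 for miR-192-3p (0.18), which also turned without MSCs-exo library 10 (-0.026), and -0.0036 (without MSCsTXL-exo library 12) to 1.89 for miR-194-3p (1.22). The cause was not tested.

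The count of 14 miRNAs past the thresholds was 24 with DESeq2, 9 with limma-voom, 34 with no filter, 6 with at least 10 counts in every library, 29 with the replicate block and 28 with the block in DESeq2. Leaving out 1 library gave 6 to 38, with 6 without MSCs-exo library 10 or 12, 38 without MSCs-exo library 13 and 25 without MSCsTXL-exo library 13. At an adjusted p under 0.05 there were 0, and 1 with the replicate block and 9 with the block in DESeq2, none of them a member. The difference in the ratio of miR-122-5p to miR-192-5p (0.01) was -0.10 to 0.19 with 1 library left out, that of miR-192-5p to miR-194-5p (-0.31) was -0.58 to -0.12, that of miR-122-5p to miR-122-3p (1.17) was 0.37 (without MSCsTXL-exo library 13) to 1.59, and that of miR-194-5p to miR-194-3p (-0.88) was -1.59 to 0.13 (without MSCs-exo library 13). Whether groups overlapped under other scalings was added after seeing the data, and the replicate block changed no call of a member. Depth limits the 3p arms, at 0 to 12 UMIs a library.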

Other observations

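The table also lists miR-122b, on the strand opposite miR-122-5p and opposite its first 20 of 22 bases. RefSeq places a mature RNA of the same length there under the name miR-3591, from 61028831 to 61028850 on the minus strand of chromosome 18 (GRCr8), which is shown because it is the exact reverse complement of those bases.
miR-3591: aacaccauugucacacucca
Reading both names as the same RNA rests on this relative position. In libraries 10, 12 and 13, miR-122b had 7, 9 and 12 UMIs without TXL and 2, 6 and 31 UMIs with it. Of the UMIs of miR-122b and miR-122-5p together it held 8.33%, 6.67% and 7.41% in MSCs-exo and 3.28%, 6.52% and 7.40% in MSCsTXL-exo. The exact binomial 95% intervals of all 6 overlapped, and that of the lowest share ran from 0.40% to 11.3% (MSCsTXL-exo library 10). Its group means, 13 ± 0.43 CPM in MSCs-exo and 10.8 ± 8.1 CPM in MSCsTXL-exo (SD, n = 3), were below the filter on low counts.

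The same count was made for other miRNAs. Leaving out this pair, among 31 pairs of overlapping miRNAs on opposite strands with at least 100 UMIs in the larger and at least 10 bases of overlap, the smaller had a median of 7.13% of the UMIs of the larger, with a range of 0.0926% to 48.4%. The value for miR-122b against miR-122-5p was 7.56%.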
